A study of Mus musculus with 54 samples.

Results

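Acinar cells of the pancreas make the enzymes that digest food and store them in zymogen granules, the proteases as inactive precursors, until a meal triggers secretion. The chromatin loops and domains around 9 of these enzyme genes were described in gemcitabine-resistant and parental mouse pancreatic cancer cells. The genes encode chymotrypsin-like proteases (Ctrb1, Ctrl and Ctrc), a trypsinogen (Prss2), carboxypeptidases (Cpa1 and Cpb1) and lipases (Pnlip, Pnliprp1 and Cel). They were chosen by name, with the loop counts of these same lists already known for several of them, so every value below describes the lists and supports no direction. In the annotation used, 8 of the 9 are protein-coding, out of 21631 protein-coding genes on chromosomes 1 to 19 and X, and Ctrc is a transcribed pseudogene.

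In acinar cells these genes are switched on together by the PTF1 complex, which joins the basic helix-loop-helix factor Ptf1a and its partner to Rbpjl and binds an E-box next to a second short box. Acinar cells that turn into duct-like cells, an early step towards pancreatic cancer in mice, lose expression of these enzymes. A chromatin loop is a pair of distant sites that touch more often than their surroundings, and a topologically associating domain is a stretch of chromosome that contacts itself more than its neighbours.

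The resistant samples were cells labelled gemcitabine resistant and treated with gemcitabine in DMSO, and the parental samples were cells labelled WT and treated with DMSO. All were mouse pancreatic cancer cells from a primary tumour, and the labels give no age, strain or clone. Hi-C was made from 3 samples per condition, and 1 list of loops and 1 list of domains per condition were used here, so resistance and drug treatment cannot be told apart and no difference has a replicate check or a test. The design text mentions doxorubicin for Hi-C where the sample labels have gemcitabine, and the labels were followed. The resistant list held 7169 loops and the parental list 6829, each between 2 bins of 5 kb. They held 4196 and 3997 domains. Of the loops, 2541 had a partner in the other list with both anchors within 10 kb, which was 35.4% of the resistant and 37.2% of the parental list. The reads behind each list are unknown. Expression was not analysed here, so whether the cells transcribe any of the enzyme genes, or carry other acinar features, was not tested.

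At the gene ends, the resistant list had more loops than the parental list. Within 5 kb of an end of a member there were 5 resistant loops, at Ctrb1, Ctrl, Prss2 (2 loops) and Pnlip, and 1 parental loop, at Prss2. None of the 6 had a partner in the other list, while 35.4% of all resistant and 37.2% of all parental loops had one. The counts were 3 resistant and 0 parental at the stricter p-value threshold, and 2 resistant and 1 parental where the gene end had to lie inside the bin. Of the 8 protein-coding members, 4 had a resistant-only loop at an end, beside 14.2% of all protein-coding genes, and 1 had a parental-only loop, beside 13.6%. The choice of members rests on these same counts. Ctrc, Pnliprp1, Cpa1, Cpb1 and Cel had no loop at an end in either list.

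**Figure D1:**
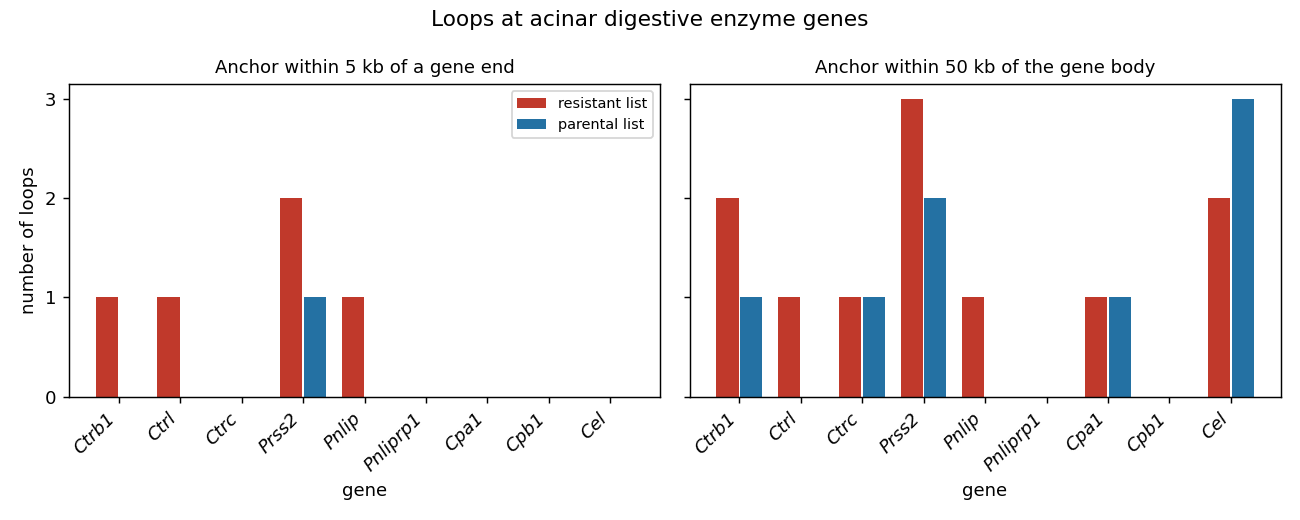
Number of loops per gene in the resistant list (red) and the parental list (blue), for anchors within 5 kb of a gene end (left panel) and within 50 kb of the gene body (right panel). At gene ends the parental list has a single loop, at Prss2, and the resistant list has 5 loops over 4 genes.

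The 250 bases before the start of the 4 genes with a loop at an end are shown, since the loop bins lie between 0 and 8225 bases from their starts and the letters of the PTF1 site can be searched there. Sequences are from RefSeq, build GRCm38.p6, written 5′ to 3′ on the strand of the gene. They cover chr8:111691011-111691260 for Ctrb1 (minus strand), chr8:105933863-105934112 for Ctrl (minus strand), chr6:41521526-41521775 for Prss2 (plus strand) and chr19:58670115-58670364 for Pnlip (plus strand). Capitals mark E-boxes, CANNTG, which read the same on both strands, and TGGGAA or its complement TTCCCA, the core of the second box.
Ctrb1: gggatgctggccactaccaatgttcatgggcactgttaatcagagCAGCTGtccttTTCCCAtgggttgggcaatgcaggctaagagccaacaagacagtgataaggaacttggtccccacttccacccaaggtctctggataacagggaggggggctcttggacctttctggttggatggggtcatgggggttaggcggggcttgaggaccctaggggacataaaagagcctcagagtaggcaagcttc
Ctrl: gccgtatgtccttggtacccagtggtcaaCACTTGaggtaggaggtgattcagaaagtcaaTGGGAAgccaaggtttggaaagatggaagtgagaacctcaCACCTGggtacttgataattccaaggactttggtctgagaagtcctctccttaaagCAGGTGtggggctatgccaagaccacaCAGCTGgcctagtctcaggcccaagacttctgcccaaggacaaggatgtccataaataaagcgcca
Prss2: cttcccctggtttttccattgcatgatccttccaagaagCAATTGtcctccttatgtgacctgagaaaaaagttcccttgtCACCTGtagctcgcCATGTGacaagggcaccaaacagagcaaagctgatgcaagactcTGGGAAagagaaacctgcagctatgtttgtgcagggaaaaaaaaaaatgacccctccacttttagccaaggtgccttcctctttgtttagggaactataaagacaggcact
Pnlip: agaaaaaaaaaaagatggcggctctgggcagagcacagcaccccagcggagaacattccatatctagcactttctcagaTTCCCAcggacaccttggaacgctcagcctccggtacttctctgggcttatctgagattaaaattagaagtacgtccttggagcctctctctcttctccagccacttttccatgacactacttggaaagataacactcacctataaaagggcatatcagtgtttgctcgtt

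In Ctrb1 an E-box, CAGCTG, began 205 bases before the start and TTCCCA followed at 194 bases. Ctrl had 4 E-boxes and Prss2 had 3, each with 1 TGGGAA. In Ctrl the E-box nearest to TGGGAA ended 216 bases before the start, and TGGGAA began at 189 bases. In Prss2 these positions were 150 and 111 bases. Pnlip had TTCCCA and no E-box in this window. Of the 8 members in the promoter table, 7 had an E-box, 7 had TGGGAA or TTCCCA and 6 had both, the exceptions being Pnlip (no E-box) and Cpb1 (no TGGGAA). Among 17274 protein-coding genes with a sequence of the same length, 62.7% had an E-box, 21.1% had TGGGAA or TTCCCA and 13.8% had both. Both motifs were counted anywhere in the 250 bases, whatever their spacing, so these are not counts of PTF1 sites. The 2 motifs did not overlap in these members. Ctrc was not in the table.

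Ctrb1, chymotrypsinogen B, had the loop of lowest caller's p among the 9 genes. In the resistant list it ran 145 kb, between bins at 111680001 to 111685000 and 111825001 to 111830000 of chromosome 8, with a caller's p of 1.54e-10 and rank 49 of 7169. The gene (111686510 to 111691010) is read from the minus strand, and the near bin lay 1510 bases beyond its 3′ end and 6010 bases from its start. The loop thus went out from the 3′ side and arched back over the whole gene and over Bcar1, an adaptor protein of cell adhesion, to a bin inside the body of Cfdp1, a chromatin-associated protein. No protein-coding gene but Ctrb1 had an end within 5 kb of either bin. Of the 6 resistant loops in its domain it had the lowest p. In the parental list the nearest anchor to its near bin lay 20 kb away and to its far bin 55 kb away.

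A further loop near Ctrb1 was in both lists. It joined a bin 21.5 kb from the gene (111660001 to 111665000) to Znrf1, a ubiquitin ligase gene. Its rank was 340 of 7169 in the resistant list (130 kb, caller's p 1.09e-08) and 4386 of 6829 in the parental list (125 kb, caller's p 0.000852). Ranks hold within a list only, and the reads behind them are unknown.

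Ctrl, a smaller chymotrypsin-like protease gene, lay whole inside a loop bin. Its resistant-only loop ran 215 kb between bins at 105930001 to 105935000 and 105715001 to 105720000 of chromosome 8 (caller's p 1.23e-05, rank 2364). The near bin holds Ctrl from start to end (105931994 to 105933862) and is shared with 3 neighbours whose ends lie within 5 kb. These are Pskh1, a protein kinase, Psmb10, a subunit of the immunoproteasome, and Lcat, which esterifies plasma cholesterol. At the far bin were Gfod2 and 4933405L10Rik, and 7 genes lay between the bins, among them Nutf2, a nuclear import factor, and Cenpt, a centromere protein. At this resolution the loop cannot be given to Ctrl rather than to Pskh1, Psmb10 or Lcat. The nearest parental anchors lay 60 kb from its near bin and 245 kb from its far bin.

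Prss2, anionic trypsinogen, was the one member with a loop at an end in both lists. It lies inside the T cell receptor beta locus, Tcrb, with V segments upstream of it, and D, J and C segments and the V segment Trbv31 downstream. The first resistant loop ran 265 kb from a bin at 41525001 to 41530000 of chromosome 6, which overlaps the 3′ end of the gene, to a bin by the V segments Trbv27 and Trbv28 (caller's p 4.18e-05, rank 2931). The second ran 395 kb from the next bin, 4922 bases from the gene, to a bin by Trbv13-3, Trbv14 and Trbv15 (caller's p 0.000457, rank 4148). The parental loop used the same near bin as the first resistant loop and ran 325 kb to a bin by Trbv21 (caller's p 0.00115, rank 4548).

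The far anchors at Prss2 thus differed by more than the 10 kb tolerance while the near anchor did not. The parental far anchor lay 60 kb from that of the first resistant loop and 65 kb from that of the second. Another resistant loop, of 365 kb, ended 34.9 kb from Prss2, by the V segment Trbv31, and reached a bin 5 kb from the parental far anchor (caller's p 0.00112, rank 4655). All 4 of these loops enclose the trypsinogen genes Try4, Try5, Try10, Prss3 and Prss1 and the predicted genes Gm5771 and Gm10334, none of which had a loop at its own ends. The bin 41525001 to 41530000 lies within 5 kb of the D segment Trbd1 and the J segment Trbj1-1, and the next bin holds both, so these loops cannot be given to Prss2 rather than to the receptor locus. The trypsinogen genes and the V segments are families of similar copies, and how reads that match several copies were placed is not stated in the labels, so the anchors here are uncertain. Those 4 were all the loops inside the Prss2 domain, 3 in the resistant and 1 in the parental list.

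Pnlip, the pancreatic triglyceride lipase gene, had a single and weak loop. Its resistant-only loop ran 85 kb between bins at 58665001 to 58670000 and 58580001 to 58585000 of chromosome 19 (caller's p 0.0263, rank 6782 of 7169). The near bin ended 365 bases before the start of the gene, and no other protein-coding gene had an end within 5 kb of either bin. The nearest parental anchors were 50 kb from its near bin and 35 kb from its far bin. A parental loop between bins starting at 58470001 and 58615001 (caller's p 3.64e-05) ended 50.4 kb from Pnlip, just outside the 50 kb window.

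**Figure D2:**
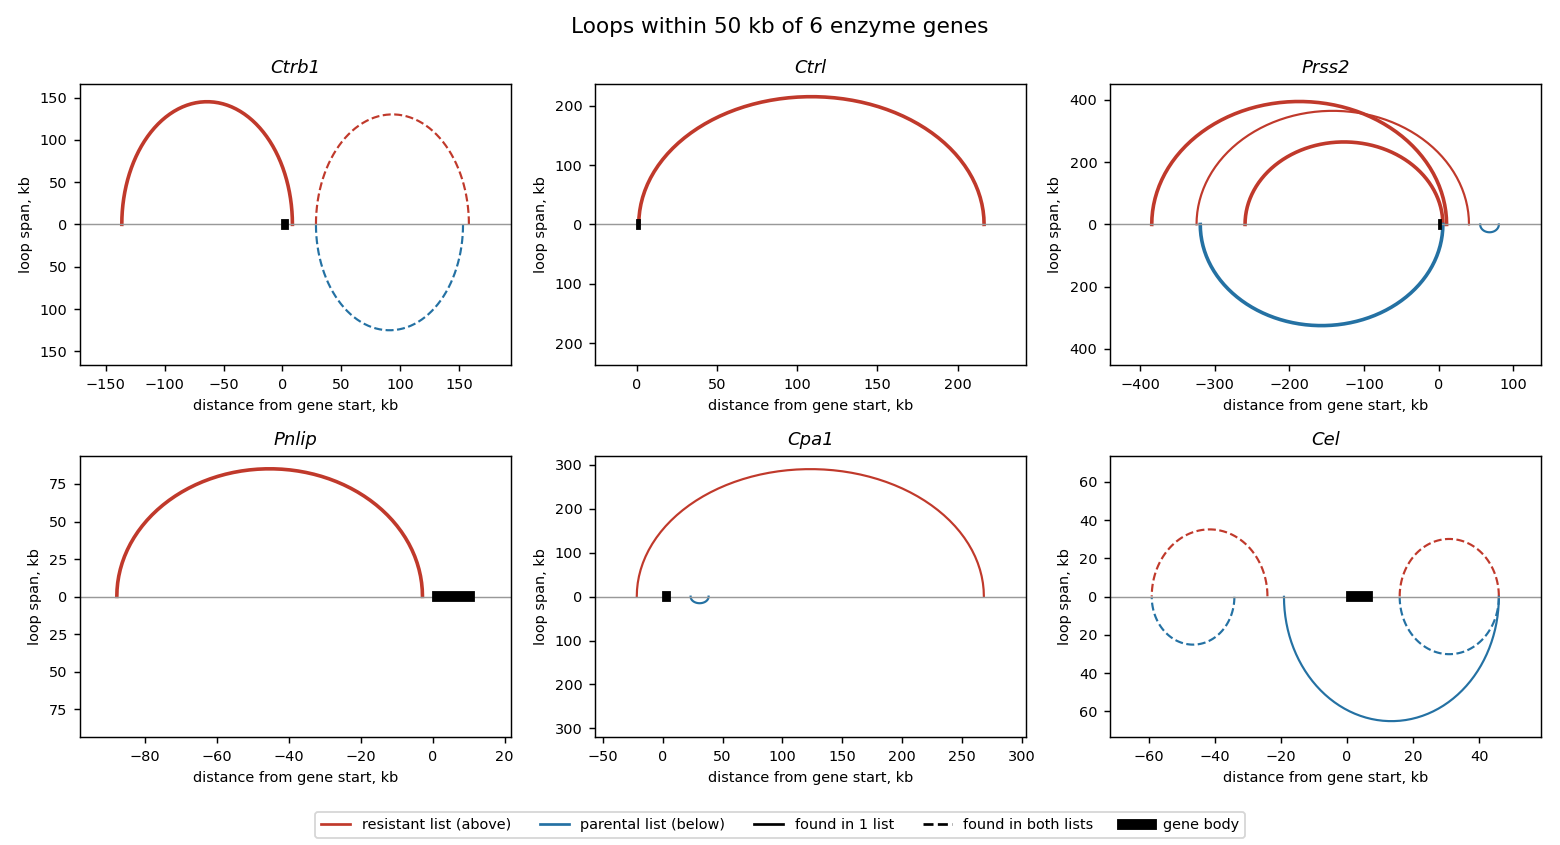
Loops within 50 kb of 6 enzyme genes, resistant list above the line and parental list below it, with distance from the gene start (kb, positive into the gene) on the horizontal axis and loop span (kb) as the height of the arc. Thick arcs have an anchor within 5 kb of a gene end, dashed arcs were found in both lists, and the black box is the gene; at Prss2 the parental arc of 325 kb shares its near bin with the resistant arc of 265 kb.

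Within 50 kb of the gene bodies the lists were closer. There were 11 resistant loops, 7 of them resistant-only, and 8 parental loops, 4 of them parental-only. A partner in the other list was thus found for 4 of the 11 and 4 of the 8. Over the whole lists 35.4% of resistant and 37.2% of parental loops had one. Of the 8 protein-coding members, 6 had a resistant loop in this window, beside 61.5% of all protein-coding genes, and 4 had a parental loop, beside 60.4%. Both counts are near their background shares. The loop nearest inside the 5 kb limit was the second Prss2 loop at 4.92 kb, and the nearest outside it was a loop found in both lists 5.82 kb from Cel. At the 50 kb limit, a parental loop 49.9 kb from Prss2, running 25 kb to the receptor gene Ephb6 (caller's p 0.00184), was just inside.

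Around Cel, the bile-salt-dependent lipase gene, most loops were in both lists and joined its neighbours. A 30 kb loop with both bins at Ralgds, an activator of Ral GTPases, had identical bins in the resistant list (caller's p 7.65e-06, rank 2149) and the parental list (caller's p 1.6e-05, rank 2481). A loop from Gtf3c5, a subunit of an RNA polymerase III factor, to Gfi1b, a repressor of blood cell lineages, ranked 1381 in the resistant list. Its parental partner, whose near bin lay 31.6 kb from Cel with no protein-coding gene end within 5 kb, ranked 4807. The parental list alone had a 65 kb loop from Ralgds to Gtf3c5 that enclosed Cel (caller's p 1.19e-05, rank 2354). Its Gtf3c5 bin lay 5 kb from a resistant anchor and its Ralgds bin was a resistant anchor, but no resistant loop joined them.

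Cpa1, which trims aromatic and aliphatic residues from protein ends, had weak or short loops nearby. In the resistant list a 290 kb loop began 19.2 kb away at its paralogue Cpa5 and enclosed Cpa1 (caller's p 0.0363, rank 6999), and in the parental list a 15 kb loop lay inside Cep41, a centrosomal gene, 14.6 kb away (caller's p 0.000559). Loops that enclosed Cpa1 numbered 4 in the resistant and 1 in the parental list, the shortest being 290 kb and 455 kb long.

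Ctrc had a loop in both lists at 43.2 kb in resistant and 48.2 kb in parental cells. It joined Ddi2, a protease gene, to a bin by Dnajc16 and Casp9, the initiator caspase of the mitochondrial death pathway. Its rank was 3422 of 7169 in the resistant list (caller's p 0.000113) and 1419 of 6829 in the parental list (caller's p 8.81e-07). The active chymotrypsin C of other mammals degrades trypsinogen. Pnliprp1, a lipase relative with little lipase activity, and Cpb1, which removes basic residues, had no loop within 50 kb. The nearest anchor to Pnliprp1 was 58.9 kb away in the resistant and 109 kb in the parental list. For Cpb1 these distances were 244 kb and 169 kb, against medians over all protein-coding genes of 25.9 kb and 26.4 kb.

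**Figure D3:**
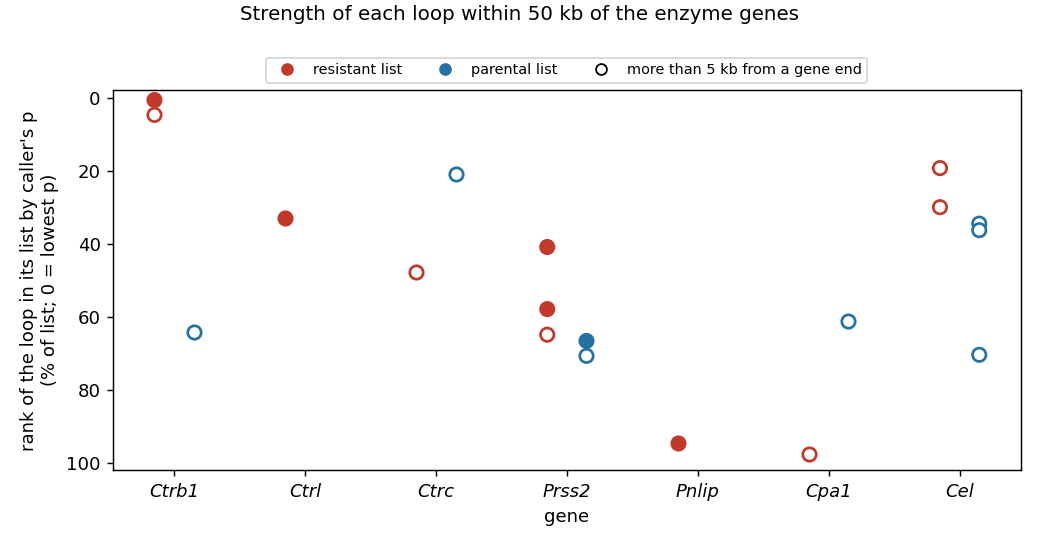
Rank of every loop within 50 kb of an enzyme gene by the caller's p, as a percentage of its own list with 0 as the lowest p, for the resistant (red) and the parental list (blue), with open circles for loops farther than 5 kb from a gene end. The Ctrb1 loop stands at 0.683% of the resistant list, and the Pnlip loop at 94.6%.

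The domains of the enzyme genes were mostly alike in both lists. Ctrb1, Ctrl and Cel had identical domains, of 730, 560 and 730 kb. At Prss2, Cpa1 and Cpb1 each border moved by at most 10 kb. Of the 8 protein-coding members, 6 had both borders matched within 20 kb, beside 60.9% of the protein-coding genes that lay in a domain of both lists. Identical domains were found for 3 of the 8, beside 31.3% of those genes. These 2 counts are near the shares over all genes, so the likeness is not particular to the enzyme genes. The Ctrb1 and Ctrl loops that were in the resistant list alone lay inside domains with identical borders.

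Pnlip and Pnliprp1, which share a domain, had the largest shifts. Their domain was 560 kb in the resistant list (58670001 to 59230000) and 740 kb in the parental list (58650001 to 59390000). As resistant minus parental position, the left border shifted by 20 kb and the right border by -160 kb, and the resistant domain held 9 protein-coding genes against 11 in the parental domain. The 2 left out were Slc18a2, the vesicular monoamine transporter, and Pdzd8, a lipid transfer protein. The left resistant border lay 365 bases before the start of Pnlip, while the parental border lay 20.4 kb before it. Pnlip was the only member with an end within 10 kb of a resistant border, 1 of the 8, beside 13.0% of all protein-coding genes, and no member had an end within 10 kb of a parental border, beside 12.2%. This distance was chosen after the values were seen. The weak Pnlip loop ended at this border from the other side, and in the parental list a border lay between its bins.

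The domain of Ctrc was 925 kb in the resistant and 960 kb in the parental list, with a right border shift of -25 kb and Necap2, a gene of endocytosis, in the parental domain only. The caller's separation score is given per domain, and what a high score stands for is not stated. By rank within the list, the domains of Ctrb1 and Ctrl stood at the 75.3 and 83.8 percentile of scores in the resistant list and at 88.0 and 88.8 in the parental list. Those of the other members lay between 24.6 and 51.9 in the resistant list and between 26.9 and 54.6 in the parental list.

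**Figure D4:**
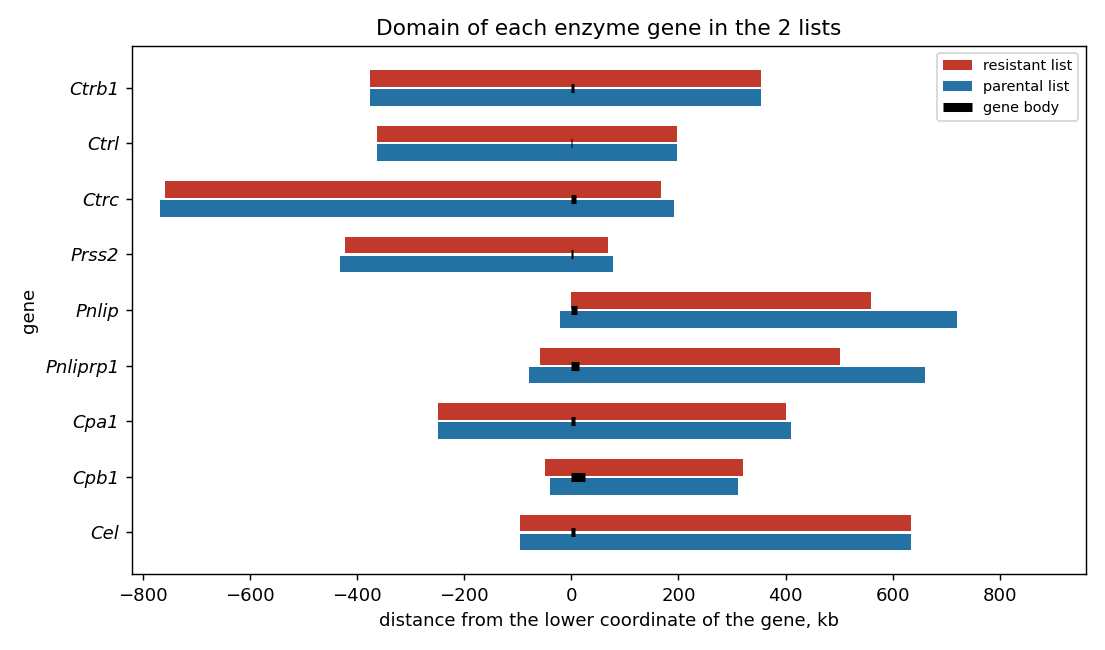
Domain that holds each enzyme gene in the resistant list (red, upper bar) and the parental list (blue, lower bar), with distance in kb from the lower coordinate of the gene on the horizontal axis and the gene body in black. Ctrb1, Ctrl and Cel have identical bars, and the resistant domain of Pnlip begins at the gene.

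Loops inside these domains, whichever gene they touched, numbered 6 in the resistant and 4 in the parental list for Ctrb1, 4 and 1 for Ctrl, 3 and 1 for Prss2 and 5 and 4 for Cpa1. The Cel domain had 6 in each list, the Ctrc domain 4 in each and the Pnlip domain 1 in each. Cpb1 lay in a domain of 3 genes with no loop in either list, as 29.1% of resistant and 29.7% of parental domains had none. The median domain held 1 loop in both lists, and the median length was 500 kb in the resistant and 510 kb in the parental list. The domains of all members but Prss2 and Cpb1 were longer than that in both lists. Loop counts were not adjusted for domain length.

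Other digestive enzyme genes had few loops at their ends. Of 30 further digestive enzyme and granule genes, such as amylases, elastases and the other trypsinogens, 29 had no loop in either list, beside 66.1% of all protein-coding genes. These 30 are not all separate loci. Try4, Try5, Try10, Prss3 and Prss1 lie together between 41302272 and 41463786 of chromosome 6. How reads that match several such copies were placed is not stated, and its part in this count was not tested. Among 8 acinar transcription factors, 3 had a resistant-only loop (Nr5a2, Gata4 and Gata6) and 3 a parental-only loop (Rbpjl, Xbp1 and Gata4), beside 14.2% and 13.6% of all protein-coding genes. The parental-only bins at Rbpjl, Xbp1 and Gata4 were shared with Sdc4, Ccdc117 and Neil2, so these loops cannot be given to the factors alone. The resistant-only bins at the 3 factors had no other protein-coding gene end within 5 kb. Rbpjl, the acinar partner in PTF1, also had a 100 kb loop in the resistant list (caller's p 3.59e-07) that was found in both lists. Its bin at Rbpjl was shared with Sdc4, and that of its parental partner with Matn4. The parental-only loop of Rbpjl, of 150 kb, ran to Wfdc2 and Spint3 (caller's p 4.93e-05). Ptf1a, Foxp2 and Bhlha15, which drives granule formation, had none.

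Of 8 genes of acinar secretion, Itpr3, a calcium release channel, was the only 1 with a resistant-only or a parental-only loop, and had 1 of each, beside the same 14.2% and 13.6%. Both loops came from a bin shared with Uqcc2. Stxbp2, a vesicle fusion protein, had a loop found in both lists, from a bin shared with Xab2, Pet100 and Pcp2. Among 10 ductal genes, Sox9 and Onecut1 had resistant-only loops. Krt7, a keratin of duct cells, had a parental-only loop from a bin shared with Krt87. These 2 and 1 of 10 genes stand beside the same 14.2% and 13.6%, and are near them. The Sox9 loop spanned 370 kb (caller's p 0.000221). Car2, a carbonic anhydrase, had 2 resistant loops, of 315 and 350 kb, whose partners in the parental list lay outside its 5 kb window. Spp1, osteopontin, had a loop to Mepe found in both lists, of rank 71 in the resistant and 283 in the parental list. The parental bin at Spp1 was shared with Pkd2. The median over all protein-coding genes was 0 loops at an end, and it was 0 for the further enzyme genes, 1 for the transcription factors, 0 for the secretion genes and 0.5 for the ductal genes.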

How the data were processed

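Hi-C counts contacts between DNA sites by joining and sequencing neighbouring ends. Per the labels' protocols, fixed chromatin was cut with DpnII, filled in with biotin and ligated. The submitters' processing notes list BWA, mm10 and hg19, and the lists' coordinates were read as mm10. Not given in the sources used here are the programs that called loops and domains and whether replicates were pooled. The deposited loop lists give 1 p-value per loop from the authors' caller, at most 0.0497, so weaker loops were not seen. The deposited domain lists give 1 separation score per domain. Both served here only for ranks inside 1 list. Per the labels, the other 48 samples are RNA-seq, ATAC-seq and ChIP-seq, and they were not analysed here.

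Gene positions, strands and promoter sequences came from RefSeq tables of GRCm38.p6, the assembly of mm10, and coordinates are written from 1. Bins, domains and genes were joined in Python 3.11.15 with pandas 2.3.3. A loop was placed at a gene when a bin lay within 5 kb of either gene end, or within 50 kb of the gene body. A loop counted as found in both lists if each of its anchors was at most 10 kb from the matching anchor of 1 loop of the other condition. Borders were matched within 20 kb. The domain of a gene holds its midpoint. Each condition has 1 list, so there is no error between replicates, no interval and no test. The members and the 4 other gene lists were chosen with earlier results of these data known. All members were named, as were protein-coding genes with an end at the bins of the loops at member ends or of the 10 other loops of lowest p, and list genes with a loop, except 1 that is not reported here. T cell receptor segments, genes within or inside loops, genes at weaker loops and other genes at the bins of list genes were named after their values were seen. Protein sequences were not analysed here. The 1 list symbol without a match, Mist1, is an older name of Bhlha15. Matching and distances were tested on simulated data. Alternatives were other tolerances and windows, a stricter p-value, lists of equal length, loops over 15 kb and higher-scoring domains.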

Additional observations from a re-analysis of the deposited data

How the results depend on the processing

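Of 33 counts recomputed under the alternatives, 26 stayed within 1.5 times the value reported. The stricter p-value threshold, which kept 3593 resistant and 3428 parental loops, left 3 of the 5 resistant-only loops and 0 parental-only loops at gene ends, and 1 parental-only loop within 50 kb. With the gene end inside the bin, 2 resistant-only and 1 parental-only loops remained, those of Ctrl and Prss2. At a tolerance of 0 kb there were 7 parental-only loops within 50 kb. At a border tolerance of 0 kb 3 members had both borders matched. With only the higher-scoring domains of each list, Ctrb1, Ctrl and Ctrc alone had a domain left in both lists, and 2 of these were matched. Members without a domain left were counted as unmatched, so their borders were not tested in this setting. Resistant-only loops at gene ends outnumbered parental-only loops in each loop setting in which they were counted, which the choice of members fixes in part. The read depth behind each list is unknown, and its part in these counts was not tested. No paired analysis was possible because each condition has 1 list, and leaving out a replicate was not possible for the same reason.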
